A study of Mus musculus with 5 samples.

Results

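Expression of 34 cell cycle genes was examined in ear skin from Cd1d knockout (KO) and control mice. Cd1d displays lipid antigens to natural killer T cells. The genes were taken from a list of symbols, matched by RefSeq symbol to the Entrez identifiers of the deposited read count table, and all 34 were among its 27179 identifiers. They comprise 13 genes of DNA replication (Mcm2 to Mcm7, Pcna, Rrm1, Rrm2, Tyms, Gins2, Cdc6 and Cdc45) and 21 genes of mitosis. The series holds 5 RNA sequencing libraries: control replicates 1, 2 and 3, whose titles give the genotype Cd1d +/- and whose genotype tag reads WT, and KO replicates 1 and 2, Cd1d -/- by title and Cd1d KO by tag. Age, sex, strain, hair cycle stage and any treatment were not found in the labels used here. The labels do not say whether the libraries came from separate mice, so p-values measure the spread between these 5 libraries, which may be technical.

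Total counts ranged from 32353957 to 79160005 per library, with control replicate 3 the shallowest. Cd1d1 itself, on the TMM-normalised CPM scale (CPM are counts scaled to a common library size), was 6.61, 9.87 and 5.52 CPM in control replicates 1, 2 and 3 and 1.19 and 1.12 CPM in the KO libraries, so each library went with its genotype label. Across 17472 genes tested, 657 passed an adjusted p of 0.05 between KO and control (edgeR quasi-likelihood test, Benjamini-Hochberg adjustment), which is 3.76% of them. The count depended on single libraries: leaving out control replicate 1 left 0, KO replicate 1 left 1 and KO replicate 2 left 128, while leaving out control replicate 2 gave 1334 and control replicate 3 gave 3277. In whole skin, fewer dividing cells and less cell cycle RNA per cell cannot be told apart.

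A dividing cell copies its DNA in S phase and separates the copies in mitosis, and most genes of both steps are transcribed in waves. The MCM2-7 helicase is loaded on origins by Cdc6 and switched on when Cdc45 and the GINS complex join it. E2F factors drive many replication genes. The MuvB complex with B-Myb and FoxM1 drives many mitotic genes, often through a promoter element called CHR (cell cycle genes homology region). In skin the dividing cells are mainly basal keratinocytes, sebaceous progenitors and, in the growth phase of the hair cycle, the matrix cells of the hair bulb.

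Every one of the 34 genes was well covered. Counts ran from 146 reads (Cdc6 in control replicate 3) to 10267 reads (Pcna in control replicate 2), and all 34 passed the filter on low counts. Levels between genes were compared as CPM per kilobase of the longest annotated transcript. On that scale Pcna, the sliding clamp of DNA polymerases, stood highest at 78.9 ± 8.47 CPM per kilobase in controls (SD, n = 3). Cdc20, the activator of the anaphase-promoting complex, followed at 24.98 ± 3.18, Mcm7 at 17.3 ± 1.32 and the mitotic cyclin gene Ccnb2 at 17.0 ± 0.99, and the last pair differed by less than their SD. The lowest levels per length were those of the licensing factor gene Cdc6 (0.904 ± 0.0639), the kinetochore motor gene Cenpe (1.52 ± 0.316) and the checkpoint kinase gene Bub1 (1.90 ± 0.438). Where a gene is mostly transcribed as a shorter isoform, its level per length is understated.

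**Figure D1:**
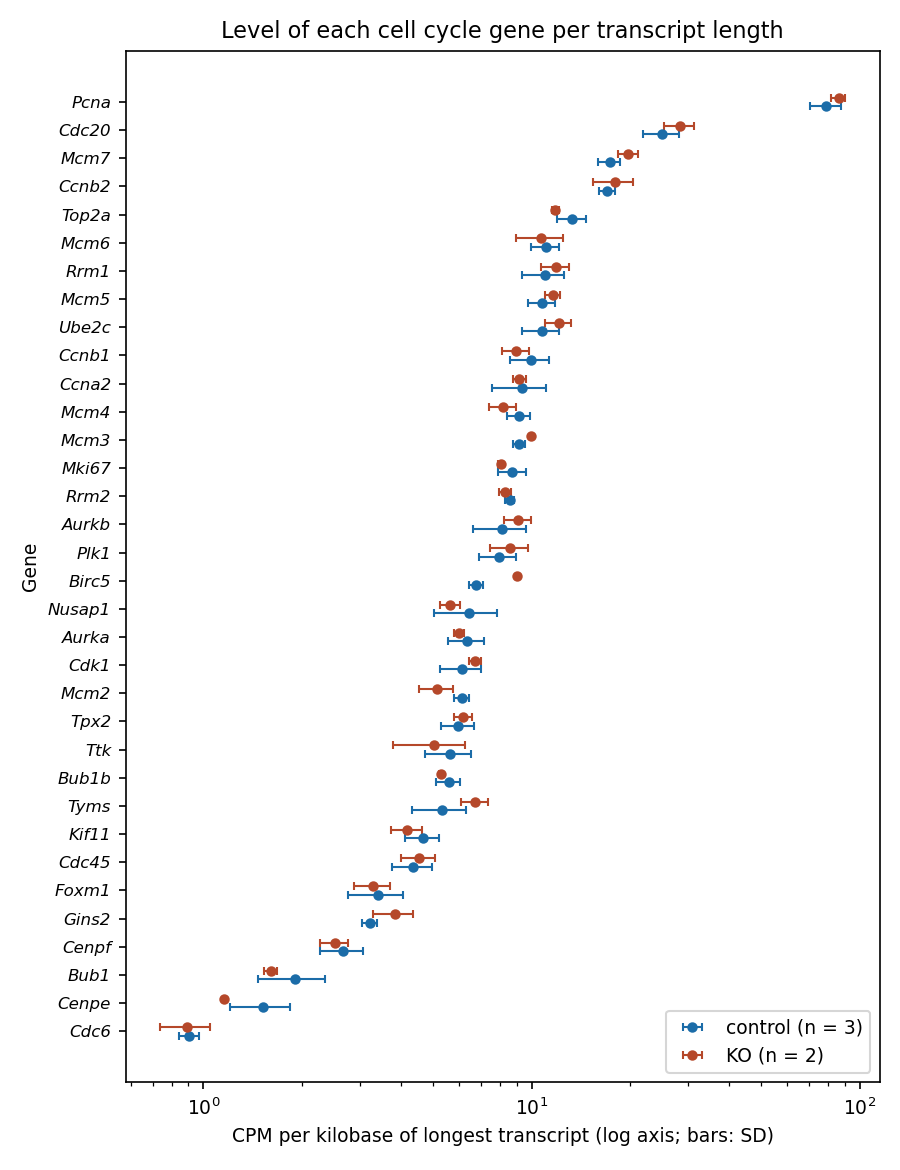
Level of each gene in CPM per kilobase of its longest annotated transcript, on a log axis, as mean and SD of the control libraries (blue, n = 3) and the KO libraries (red, n = 2). Pcna lies highest and Cdc6 lowest, and control and KO values lie close together for most genes.

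Promoter sequence, which played no part in choosing the genes, was searched for the elements named above. RefSeq promoter windows on GRCm38.p6, from 250 bases before to 50 bases after the start, were matched by symbol for 28 of the 34 genes (29 windows, since Mcm7 has a pair). The CHR letters, TTTGAA or TTCGAA on either strand, were present in 13 of 17 mitosis windows (76.5%) and 3 of 12 replication windows (25%), against 19.2% of all 32841 windows. The E2F letters, TTTGGCGC, TTTCCCGC, TTTCGCGC or TTTGCCGC on either strand, were present in 1 of 17 mitosis windows (5.88%) and 5 of 12 replication windows (41.7%), against 2.27% of all windows. CCAAT on either strand was present in 15 of 17 mitosis windows (88.2%) and 10 of 12 replication windows (83.3%), against 37.4% of all. Matches of different kinds overlapped at 1 place in the member windows. With only the 250 bases before the start, 8 of 17 mitosis windows (47.1%) held the CHR letters, so several matches lie past the start. A match describes letters and is not a shown binding site.

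Of these promoters, 6 are shown from 250 bases before the start up to the start, with matches to any of these motifs in capitals. Cdk1 (chr10:69352913-69353162, minus strand), Cdc20 (chr4:118437344-118437593, minus strand) and Ube2c (chr2:164769679-164769928, plus strand) show the CCAAT and CHR letters of mitotic genes, and Cdk1 has an E2F match as well. Mcm5 (chr8:75109259-75109508, plus strand) and Mcm6 (chr1:128359706-128359955, minus strand) show E2F letters on both strands in overlap. Birc5 (chr11:117848987-117849236, plus strand) is shown because it had the smallest p of the 34 genes, and its window holds none of these letters.
Cdk1: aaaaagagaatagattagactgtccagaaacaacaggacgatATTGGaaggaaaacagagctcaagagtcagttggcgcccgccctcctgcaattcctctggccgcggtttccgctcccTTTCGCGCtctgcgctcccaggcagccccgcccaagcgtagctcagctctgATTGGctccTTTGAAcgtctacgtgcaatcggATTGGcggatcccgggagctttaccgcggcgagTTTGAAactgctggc
Cdc20: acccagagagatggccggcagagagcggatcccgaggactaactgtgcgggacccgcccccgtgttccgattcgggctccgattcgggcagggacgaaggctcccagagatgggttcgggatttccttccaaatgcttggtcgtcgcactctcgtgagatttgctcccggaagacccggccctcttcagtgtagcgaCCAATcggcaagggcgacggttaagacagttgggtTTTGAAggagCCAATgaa
Ube2c: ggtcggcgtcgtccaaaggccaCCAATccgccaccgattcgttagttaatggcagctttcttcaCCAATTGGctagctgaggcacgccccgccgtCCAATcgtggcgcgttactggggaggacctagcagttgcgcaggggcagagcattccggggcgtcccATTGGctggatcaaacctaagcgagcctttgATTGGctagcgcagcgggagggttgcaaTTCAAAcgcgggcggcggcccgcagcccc
Mcm5: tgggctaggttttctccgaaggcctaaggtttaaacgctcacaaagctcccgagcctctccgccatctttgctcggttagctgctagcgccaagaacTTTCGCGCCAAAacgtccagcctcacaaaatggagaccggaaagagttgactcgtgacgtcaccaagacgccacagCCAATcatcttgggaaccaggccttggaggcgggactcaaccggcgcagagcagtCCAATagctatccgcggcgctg
Mcm6: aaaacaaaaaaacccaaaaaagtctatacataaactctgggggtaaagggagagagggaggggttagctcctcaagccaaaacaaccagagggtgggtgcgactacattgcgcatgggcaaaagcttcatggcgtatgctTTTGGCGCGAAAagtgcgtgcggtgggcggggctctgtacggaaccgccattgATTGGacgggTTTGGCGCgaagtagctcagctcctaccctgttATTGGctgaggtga
Birc5: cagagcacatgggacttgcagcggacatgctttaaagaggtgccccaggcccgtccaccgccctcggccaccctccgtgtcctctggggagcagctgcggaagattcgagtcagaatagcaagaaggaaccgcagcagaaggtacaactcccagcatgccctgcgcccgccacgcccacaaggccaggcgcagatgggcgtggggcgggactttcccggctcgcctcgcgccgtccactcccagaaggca

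Loss of Cd1d was compared with control over these genes to see whether proliferation transcripts differed in the skin. None of the 34 genes passed the threshold in either direction (edgeR quasi-likelihood test, adjusted p between 0.0784 and 0.98), where 3.76% of all genes passed, 2.71% as higher and 1.05% as lower. At an unadjusted p of 0.05 a single member, Birc5, passed, against 21.9% of all genes tested. DESeq2 called 1 member, Birc5, where it called 12.7% of genes given an adjusted p (7.64% as higher), and limma voom called 0, where it called 3.99% of all genes. Log2 fold changes ran from -0.40 to 0.41 with standard errors of 0.115 to 0.211, and 16 were above 0 and 18 below. The 95% intervals of all 34 lay within a 2-fold change either way, and those of 29 within a 1.5-fold change.

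**Figure D2:**
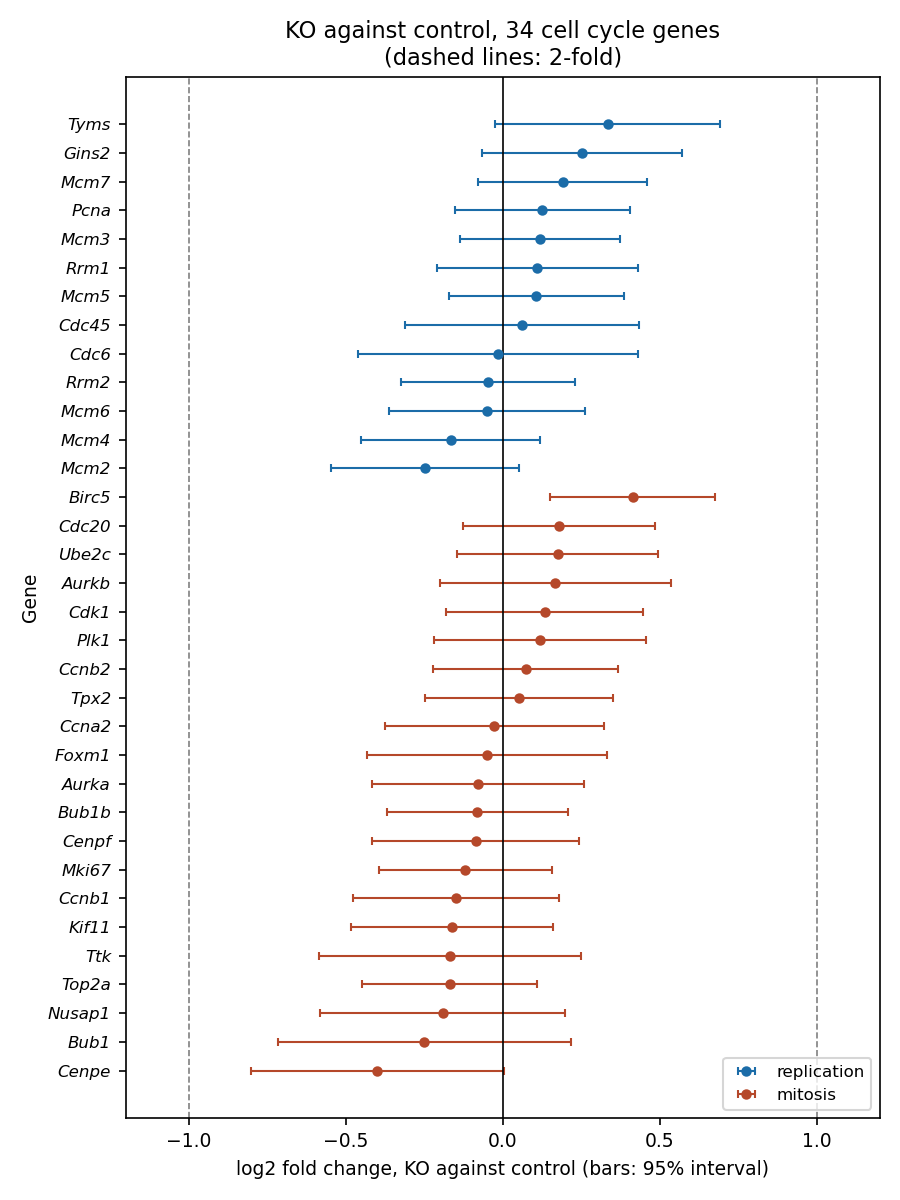
Log2 fold change of each gene, KO (n = 2) against control (n = 3), with its 95% interval from the edgeR fit, for replication genes (blue) and mitosis genes (red). All intervals lie between the dashed lines that mark a 2-fold change, and only that of Birc5 lies wholly to one side of 0.

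Among replication genes 0 of 13 rose, 0 fell and 13 did not pass, with a median log2 fold change of 0.11 against -0.018 over all genes tested. The helicase subunits did not share a sign. Mcm7 was 46.7, 53.2 and 53.8 CPM in controls and 61.4 and 55.4 CPM in KO, a log2 fold change of 0.19 (SE 0.12). Mcm2 was 21.2, 20.3 and 22.6 CPM in controls and 19.5 and 16.5 CPM in KO, a log2 fold change of -0.25 (SE 0.13, adjusted p = 0.312 by edgeR). For both, the groups did not overlap, in opposite directions. Mcm3 (31.2, 32.8 and 30.2 CPM against 34.01 and 34.2 CPM) also had both KO libraries above every control, by a log2 fold change of 0.12. Mcm4, Mcm5 and Mcm6 overlapped between groups, with log2 fold changes of -0.16, 0.11 and -0.05.

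Genes for making deoxynucleotides overlapped between the groups. Tyms, the thymidylate synthase that makes dTMP, was 18.4, 25.1 and 18.4 CPM in controls and 27.8 and 24.4 CPM in KO. KO replicate 1 was the highest library, but control replicate 2 lay above KO replicate 2, so the groups overlapped. Its log2 fold change was 0.33 (SE 0.16, 95% interval -0.02 to 0.69, edgeR adjusted p = 0.259), the largest of the replication genes. Without control replicate 2 Tyms passed (0.50, edgeR adjusted p = 0.0343), in a fit where 7.8% of all genes passed, 4.81% as higher. Rrm2, the regulated small subunit of ribonucleotide reductase, was 18.3, 18.7 and 19.4 CPM in controls and 17.6 and 18.7 CPM in KO, with the groups overlapping and a log2 fold change of -0.05. Rrm1, the large subunit, was 60.5, 68.7 and 51.0 CPM in controls and 69.4 and 60.5 CPM in KO. With offsets for transcript length and GC content its log2 fold change of 0.11 became 0.36 (edgeR adjusted p = 0.0417). In that fit 3.25% of genes passed, 2.59% as higher. Rrm1 passed in no other alternative, and with length offsets alone it was 0.30 (edgeR adjusted p = 0.415). Over the 16 alternatives its log2 fold change was -0.038 to 0.36.

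The clamp gene and the genes that load and activate the helicase did not pass either. Pcna was 117, 134 and 109 CPM in controls and 135 and 126 CPM in KO, with overlapping groups and a log2 fold change of 0.13 (SE 0.13). Gins2, a GINS subunit, was 12.1, 12.2 and 13.3 CPM in controls and 13.4 and 16.4 CPM in KO. Both KO values lay above the controls, KO replicate 1 by a narrow margin, with a log2 fold change of 0.25 (SE 0.14, edgeR adjusted p = 0.332). Cdc6 (log2 fold change -0.01) and Cdc45 (0.06) overlapped between groups. Of the 13 replication genes, 3 had both KO libraries above every control and 1 had both below, while among all genes tested 19.9% had both above and 20.0% both below, so that groups did not overlap for 39.9%.

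Among mitosis genes 0 of 21 rose, 0 fell and 21 did not pass, with a median log2 fold change of -0.079. Birc5, for the survivin subunit of the chromosomal passenger complex, had the smallest p. It was 21.8, 23.9 and 22.1 CPM in controls and 30.3 and 29.997 CPM in KO. Both KO libraries lay above every control, and their spread was small in both groups. Its log2 fold change was 0.41 (SE 0.12, 95% interval 0.15 to 0.68), with an adjusted p of 0.0784 by edgeR, which did not pass. It passed with DESeq2 (adjusted p = 0.0276), with length and GC offsets (0.47, edgeR adjusted p = 0.0189), without control replicate 2 (0.46, edgeR adjusted p = 0.0395) and without control replicate 3 (0.40, edgeR adjusted p = 0.0274, where 18.8% of all genes passed, 10.6% as higher). Over the 16 alternatives its log2 fold change was 0.27 to 0.47 and its adjusted p 0.0189 to 0.462. Survivin's partner kinase gene Aurkb did not share this pattern, at 13.4, 15.1 and 19.0 CPM in controls and 16.5 and 18.9 CPM in KO.

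The gene furthest in the other direction was Cenpe, for the motor that carries chromosomes to the spindle equator. It was 11.4, 14.8 and 9.89 CPM in controls and 9.16 and 9.10 CPM in KO. Both KO libraries lay below every control, close to control replicate 3. The log2 fold change was -0.40 (SE 0.18, 95% interval -0.80 to 0.003, edgeR adjusted p = 0.231). Without control replicate 3 it was -0.52 (edgeR adjusted p = 0.0362, where 8.25% of all genes passed as lower), and with length and GC offsets it was -0.054. Its longest transcript has 7910 bases, and with 5 members over 5 kilobases, 4 of these long genes had a log2 fold change below 0.

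Classical proliferation markers were close between the groups. Mki67, whose product Ki-67 coats mitotic chromosomes, was 89.6, 95.7 and 78.6 CPM in controls and 79.9 and 82.1 CPM in KO. The KO values lay within the control range, and the log2 fold change was -0.12 (95% interval -0.39 to 0.16). Top2a, the topoisomerase that untangles sister DNA, was 65.2, 77.4 and 65.2 CPM in controls and 60.6 and 62.6 CPM in KO, with both KO values just below the controls and a log2 fold change of -0.17 (95% interval -0.45 to 0.11). Foxm1, the transcription factor of the mitotic wave, was 14.0, 14.3 and 19.3 CPM in controls and 13.9 and 16.6 CPM in KO, a log2 fold change of -0.05.

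Genes for the engine of mitotic entry, cyclins with Cdk1, had log2 fold changes of both signs. Cdk1 was 24.0, 31.3 and 25.3 CPM in controls and 28.6 and 30.4 CPM in KO, and Ccnb1, for cyclin B1, was 21.2, 28.0 and 25.1 CPM in controls and 20.9 and 23.9 CPM in KO. Their log2 fold changes were 0.13 and -0.15, each about as large as its standard error. Ccnb2 (0.07) and Ccna2, for cyclin A2 (-0.03), were closer to 0. Ccna2 shares 863 annotated bases with the opposite-strand gene Exosc9, and because it is not known here whether counting used strand, part of its reads could belong to that gene.

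Checkpoint and exit genes also overlapped between the groups. Bub1 was 5.25, 8.16 and 6.10 CPM in controls and 5.66 and 5.30 CPM in KO, a log2 fold change of -0.25 with the largest standard error of the 34 genes, 0.211. Ttk, for the kinase Mps1 that starts the spindle checkpoint, differed more between the KO libraries (11.9 and 17.0 CPM) than between the groups, and its log2 fold change was -0.17. Bub1b, for the checkpoint protein BubR1, had -0.08. Cdc20 was 40.4, 42.8 and 51.2 CPM in controls and 47.0 and 54.3 CPM in KO (0.18), and Ube2c, the ubiquitin-conjugating enzyme of the anaphase-promoting complex, had 0.17.

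Spindle genes and mitotic kinases were likewise within the spread of the libraries. The spindle motor gene Kif11 (-0.16), the microtubule nucleation factor gene Tpx2 (0.05), the spindle protein gene Nusap1 (-0.19) and the kinetochore gene Cenpf (-0.09) had edgeR adjusted p values of 0.552 to 0.868. The kinase genes Plk1 (0.12), Aurka (-0.08) and Aurkb (0.17) overlapped between the groups. Of the 21 mitosis genes 1 had both KO libraries above every control and 2 had both below, against 19.9% and 20.0% of all genes tested. Aurka, Cdc20, Cdc45, Gins2, Mcm7 and Nusap1 also share annotated bases with an opposite-strand protein gene, and RefSeq lists pseudogenes of Ccnb1, Ccnb2, Tyms and Pcna, so reads could have been split or shared.

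Each library was also read on its own. Control replicate 2 was the highest of the 5 libraries for 13 of 21 mitosis genes, whereas it was the highest for 26.4% of all genes tested. Each KO library was compared with the mean of the 3 controls, and each control with the mean of the other 2. The control deviations of a gene therefore cancel out, so a high control makes the others low. The median deviation of mitosis genes was 0.25 on the log2 scale in control replicate 2, with 17 of 21 genes above 0. It was -0.16 in control replicate 1 and -0.10 in control replicate 3, and it was -0.094 and -0.0071 in the KO libraries, within the range of the controls. For replication genes the medians were -0.048, 0.13 and -0.084 in the controls, 0.15 in KO replicate 1 and 0.02 in KO replicate 2. KO replicate 1 was the highest library for 7 of the 13 replication genes but for 1 of the 21 mitosis genes, and it was the highest for 19.4% of all genes tested. No member deviated by more than 1 on the log2 scale in any library. Over all genes tested, deviations of that size were found for 5.31% and 4.57% in the KO libraries and for 2.87%, 3.9% and 4.74% in the controls, each in the order of replicate number.

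**Figure D3:**
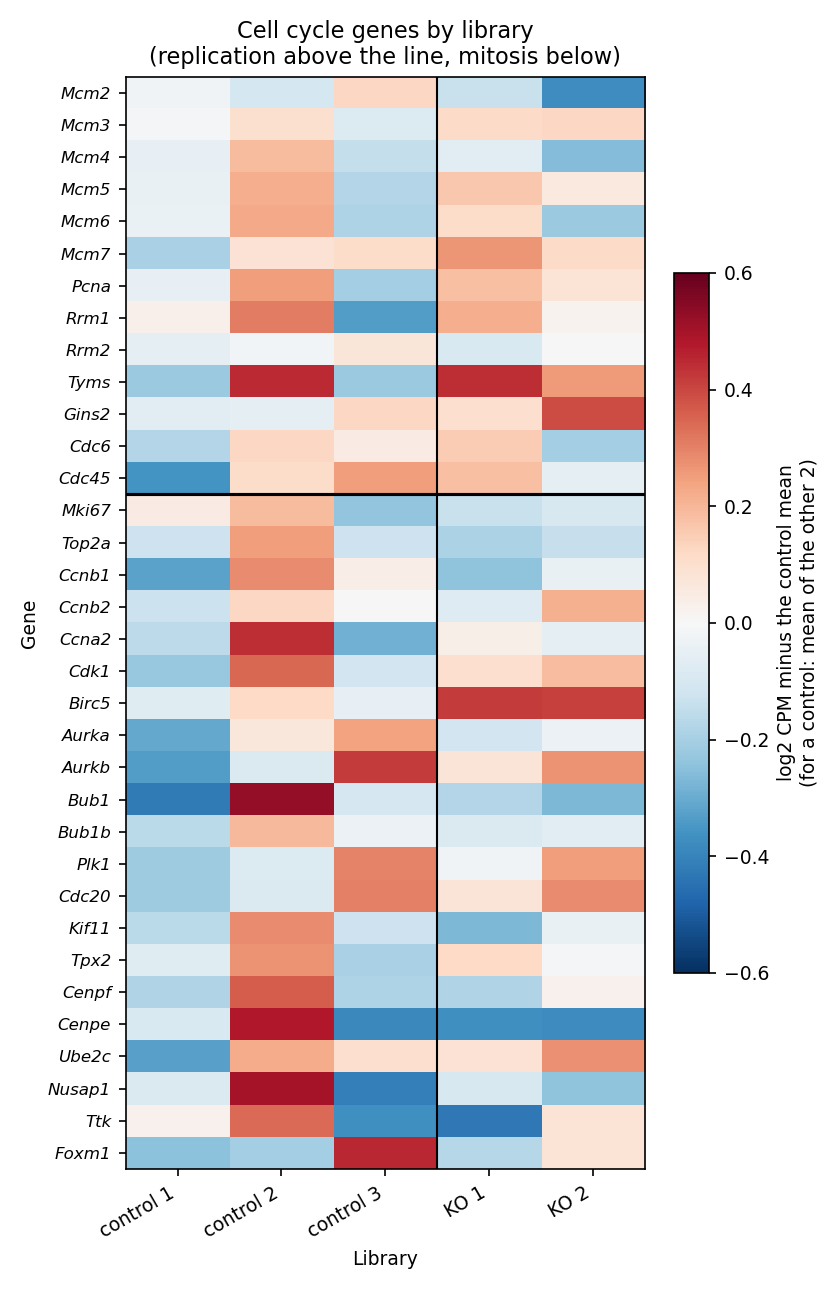
Deviation of each gene in each library on the log2 CPM scale, as colour from -0.6 (blue) to 0.6 (red), KO libraries against the mean of the 3 controls and each control against the mean of the other 2. Replication genes lie above the horizontal line and mitosis genes below, and control 2 is red for most mitosis genes.

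Which control stood high for which gene followed the GC content of the transcript. Bub1 (41% GC) and Nusap1 (41.8% GC) were highest in control replicate 2, with deviations of 0.53 and 0.50. Foxm1 (54.6% GC), Aurkb (52.5% GC) and Cdc20 (55.6% GC) were instead higher in control replicate 3 than in the other controls, with deviations of 0.45, 0.42 and 0.30. Over the 34 genes, Spearman's rho between GC content and the deviation was -0.79 in control replicate 2 and 0.74 in control replicate 3. Because control deviations are taken against each other, these opposite values are not independent. The same trend ran through all 15809 tested genes with a known transcript (-0.61 and 0.64), so it is not particular to cell cycle genes. These values describe genes that share each library and are given without a test. With offsets for length and GC content the mitosis median in control replicate 2 was 0.075 instead of 0.25, that of control replicate 3 was 0.065, and the highest was then 0.11 in KO replicate 2. The replication median in KO replicate 1 was 0.14 with these offsets and 0.15 without.

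**Figure D4:**
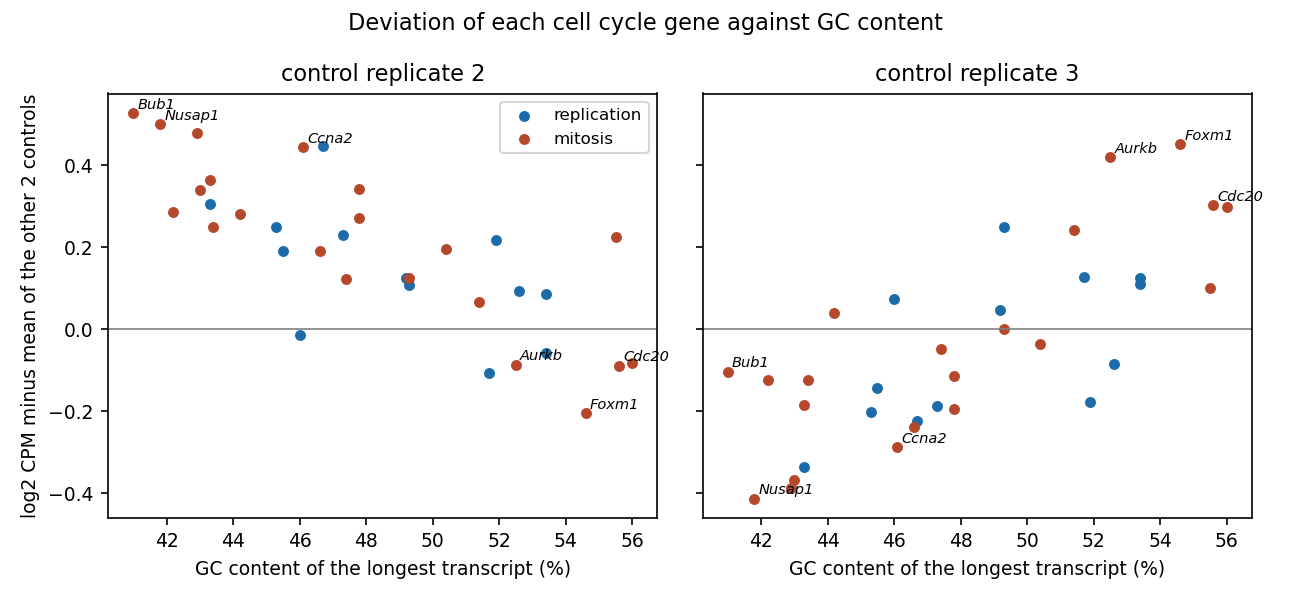
Deviation of each gene in control replicate 2 (left) and control replicate 3 (right) from the mean of the other 2 controls, on the log2 scale, against the GC content of its longest transcript in percent. Replication genes are blue and mitosis genes red. The deviations go down with GC content in control replicate 2 (rho -0.79) and up in control replicate 3 (rho 0.74).

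Length of the transcript went with the genotype difference in the mitosis genes. Across the 21 mitosis genes, the log2 fold change and the length of the longest transcript had a Spearman's rho of -0.52, and across the 13 replication genes it was -0.071. Over all tested genes it was -0.55. Over the 15809 tested genes with a known transcript, rho between length and the deviation was -0.50 and -0.51 in KO replicates 1 and 2. In control replicates 1, 2 and 3 it was 0.13, 0.03 and -0.11. The length trend thus went with genotype, so offsets also take out genotype differences that go with length. A trend of the libraries and such a genotype difference cannot be told apart here. Mki67 and Cenpf, with 10061 and 11130 bases the longest members, had log2 fold changes of -0.12 and -0.09, which with length and GC offsets were 0.22 and 0.29. Neither passed in either fit, and the median over the mitosis genes was 0.017 with these offsets.

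Other genes of the same pathways were read from the same fit. Of 42 further replication genes tested, 0 rose, 0 fell and 42 did not pass (edgeR), with a median log2 fold change of 0.085. An unadjusted p under 0.05 was found for 6 of them, against 21.9% of all genes tested. Tk1, the thymidine kinase of the salvage pathway, was 35.2, 34.7 and 39.2 CPM in controls and 53.4 and 48.7 CPM in KO. Both KO libraries lay well above the controls, with a log2 fold change of 0.49 (SE 0.12), and the adjusted p of 0.0501 by edgeR fell just outside the threshold. Without control replicate 2, 3 of these genes passed as higher (Gmnn, Rpa3 and Tk1), and without control replicate 3, 2 did (Rpa3 and Tk1), in fits where 4.81% and 10.6% of all genes passed as higher. The replication protein A subunit gene Rpa3 (0.45), the licensing inhibitor gene Gmnn (0.44) and the polymerase epsilon subunit gene Pole (-0.44) had the next smallest p, with adjusted p of 0.099 to 0.144 by edgeR.

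Of 59 further mitosis genes, 0 rose, 0 fell and 59 did not pass (edgeR), with a median of -0.0079. An unadjusted p under 0.05 was found for 11 of them, against 21.9% of all genes tested. Ube2s, the chain-elongating ubiquitin enzyme of the anaphase-promoting complex, had the smallest p and was 29.0, 32.9 and 36.7 CPM in controls and 43.6 and 46.5 CPM in KO (log2 fold change 0.46, edgeR adjusted p = 0.0798). The Cdk-binding subunit gene Cks1b (0.36), the centromeric histone gene Cenpa (0.37) and the mitotic kinesin gene Kif20b (-0.50) followed. Without control replicate 2, 1 of these genes passed as higher (Cks1b), and without control replicate 3, 2 passed as higher (Cenpa and Ube2s) and 1 as lower (Anln). Of all genes, 4.81% passed as higher in the first of these fits, and 10.6% as higher and 8.25% as lower in the second.

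Of 28 genes for G1 cyclins, their kinases, E2F factors and pocket proteins, 0 rose, 0 fell and 28 did not pass (edgeR). Their median was -0.14. An unadjusted p under 0.05 was found for 7 of them, against 21.9% of all genes tested. E2f1, the activator of replication genes, was 25, 23.2 and 27.2 CPM in controls and 38.7 and 32.9 CPM in KO, with both KO values above the controls (0.51, SE 0.13, edgeR adjusted p = 0.057). The pocket protein genes Rbl2 (p130) and Rbl1 (p107), which hold E2F genes silent in resting cells, had -0.42 and -0.45, and the E2F partner gene Tfdp2 had -0.35. E2f1 passed as higher without control replicate 2 or 3, and lower calls numbered 1 (Rbl2) without control replicate 2 and 4 (Lin54, Rb1, Rbl1 and Rbl2) without control replicate 3, where 2.99% and 8.25% of all genes passed as lower and 4.81% and 10.6% as higher.

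The inhibitors of cyclin-dependent kinases gave no call either. Of 7 such genes 0 rose, 0 fell and 7 did not pass (edgeR), with a median log2 fold change of 0.15. An unadjusted p under 0.05 was found for 3 of them, against 21.9% of all genes tested. Cdkn1b, for p27, was 94.5, 105 and 84.5 CPM in controls and 75.3 and 66.3 CPM in KO. Both KO values lay below the controls (-0.42, SE 0.13, edgeR adjusted p = 0.101). Cdkn2d, for p19 of the INK4 family, had 0.39, Cdkn2b, for p15, 0.36 and Cdkn1a, the p53-induced p21, 0.19. Without control replicate 3, Cdkn1b passed as lower and 2 genes (Cdkn2b and Cdkn2d) as higher, in the fit where 8.25% and 10.6% of all genes did so.

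KO replicate 1 differed from all other libraries in most listed genes of the growing hair follicle, whose matrix is a dividing tissue. All 21 genes of a list of inner root sheath and hair shaft keratins and matrix regulators were detected, and 0 passed between the genotypes (edgeR). An unadjusted p under 0.05 was found for 2 of them, against 21.9% of all genes tested. Their summed level was 78.7 to 118 CPM in controls, 861 CPM in KO replicate 1 and 96.2 CPM in KO replicate 2. The inner root sheath keratin gene Krt71 was 191 CPM in KO replicate 1 and 1.38 to 4.49 CPM in the other libraries. Tchh, for trichohyalin, was 167 CPM against 7.24 to 9.04 CPM. The matrix regulator gene Dlx3 was 54.8 CPM in KO replicate 1, 37.2 CPM in KO replicate 2 and 30.2 to 42.4 CPM in controls. In KO replicate 1, 17 of the 21 hair genes deviated by more than 1 on the log2 scale. So did 5.31% of all genes tested, but 0 of the 34 cell cycle genes. The other hair genes were all matrix regulators: Foxn1 (0.068), Msx2 (0.61), Dlx3 (0.665) and Lef1 (0.69). The regulators above 1 were Hoxc13 (1.07) and Shh (3.8). Deviations over 1 were also found for 3, 9 and 12 hair genes in control replicates 1, 2 and 3, and for 2 in KO replicate 2. The median deviation of the hair genes was also raised in control replicate 3, at 1.2. In KO replicate 1 the median deviation was 5.3 for the hair genes, 0.15 for replication genes and -0.094 for mitosis genes. In the edgeR fit without KO replicate 1, the medians over replication and mitosis genes were 0.0091 and -0.014, and without KO replicate 2 they were 0.15 and -0.12.

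**Figure D5:**
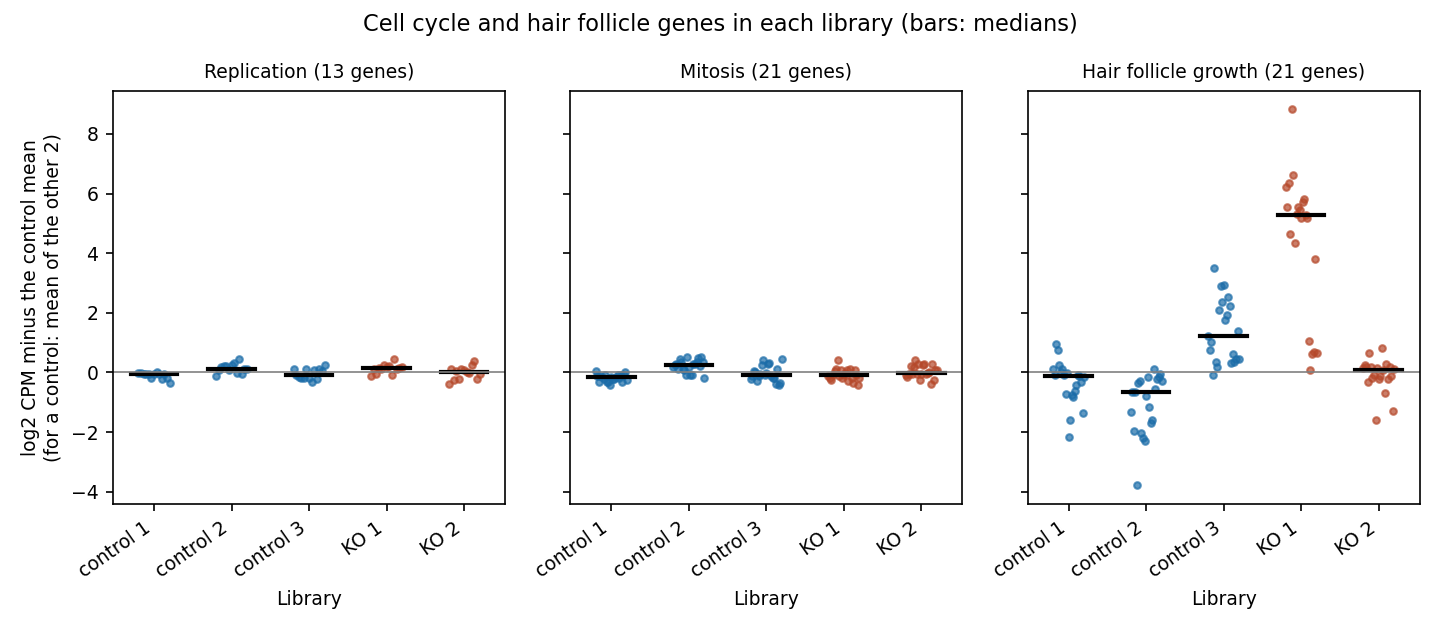
Deviation of each gene in each library on the log2 CPM scale (points), with medians (bars), for replication genes, mitosis genes and genes of the growing hair follicle, in control (blue) and KO (red) libraries. The hair genes have a median of 5.3 in KO 1, where the replication and mitosis genes lie near 0.

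Markers of other cells were present in all libraries, with none of the listed genes at 0 throughout. The summed level of 8 basal keratinocyte genes was 15800 to 18400 CPM in controls and 18500 and 19100 CPM in KO. Krt5, Krt14 and Krt15 were the most abundant. Of the 8, 2 (Itga6 and Dst) passed as lower (edgeR), against 1.05% of all genes tested. The sum and the median went in opposite directions: the median log2 fold change of the 8 genes was -0.25. The median deviation was -0.29 in KO replicate 1 and -0.20 in KO replicate 2. Of the 8 genes, 5 had both KO libraries below every control, against 20.0% of all genes tested. Skeletal muscle genes summed to 5500 to 5890 CPM in controls and 7260 and 8120 CPM in KO (12 genes). Of these, 4 passed as higher and 1 as lower, against 2.71% and 1.05% of all genes tested. T cell genes summed to 287 to 324 CPM in controls and 379 CPM in each KO library (11 genes, 10 of them tested, none passing). Most of that sum was Thy1, at 224, 242 and 260 CPM in controls and 291 and 303 CPM in KO. Myeloid genes summed to 582 to 676 CPM in controls and 787 and 672 CPM in KO (10 genes, led by Lyz2, none passing), and fibroblast genes to 26100 to 33500 CPM and 27400 and 27100 CPM (8 genes, led by Col3a1, none passing). The part of any of these cell types in the cell cycle values was not tested.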

How the data were processed

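Total RNA of ear skin was sequenced in 3 control and 2 KO libraries, grouped and numbered by their titles. The authors deposited raw read counts, whole numbers for each Entrez gene. Per the submitters' processing notes, FastQC, HISAT2 2.0.4 and DESeq2 1.16.1 were used with GRCm38 (mm10). For the counting program, its strand setting and the RNA selection, the sources used here give no entry.

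Symbols and positions came from RefSeq GRCm38.p6 (25275 of 27179 identifiers), and length and GC content of the longest transcript from GENCODE M21 (90.5% of tested genes). Genes were kept with filterByExpr (17472) and scaled with TMM (factors 0.936 to 1.07). KO was tested against control by robust quasi-likelihood F tests of edgeR 4.0.16 in R 4.3.3, adjusted by Benjamini-Hochberg over all genes, and 95% intervals used its degrees of freedom. The biological coefficient of variation was 0.154. Deviations used log2 CPM with a prior count of 0.5. The alternatives were other scalings, filters, robust estimation off, DESeq2 1.42.0, limma 3.58.1 voom, the replicate number as a block, offsets on length and GC content (mgcv 1.9.3) and leaving out each library. Offsets on the per-library deviations were added after seeing the data.

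The 34 members, the lists and the markers were chosen with earlier results of these data known. The text names all members, Cd1d1, up to 4 genes of each pathway list by smallest p and up to 3 of each marker list by level. Itga6 and Dst were named after their values were seen, and genes of similar pattern were not sought, since 5 libraries are too few for a correlation. Of the listed symbols 1 (Claspn) matched no row. Between libraries of a group the chi-square of gene counts, divided by its degrees of freedom, was 23.2 or more, so none was a duplicate. On simulated data with 50 genes per size among 17146 genes, this test found 42% of 1.5-fold and 86% of 2-fold changes, with 7 false calls among 168. The simulated libraries held no trend on length or GC content and no deviating library. These rates therefore need not hold for the real libraries.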

Additional observations from a re-analysis of the deposited data

How the results depend on the processing

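Over 16 alternatives the log2 fold change of 20 members changed sign at least once (52 values), and 0 of these values passed the threshold in the fit that gave them. The cause was not tested. With scaling by library size alone, which moved the median of all genes to -0.16, log2 fold changes were -0.029 for Mcm3, -0.04 for Mcm5, -0.022 for Pcna, -0.038 for Rrm1, -0.083 for Cdc45, -0.072 for Ccnb2, -0.013 for Cdk1, -0.026 for Plk1 and -0.096 for Tpx2. The median over replication members was then -0.04, and their median deviation was -0.0015 in KO replicate 1 and -0.12 in KO replicate 2. With length and GC offsets the values were 0.087 for Mcm6, -0.027 for Pcna, 0.13 for Cdc6, -0.016 for Cdc45, 0.22 for Mki67, 0.064 for Top2a, -0.11 for Ccnb2, 0.017 for Ccna2, -0.035 for Plk1, -0.03 for Cdc20, 0.059 for Kif11, 0.29 for Cenpf and 0.029 for Foxm1. With length offsets alone they were 0.061 for Mcm6, -0.11 for Pcna, 0.13 for Cdc6, -0.048 for Cdc45, 0.2 for Mki67, 0.0048 for Top2a, -0.16 for Ccnb2, 0.25 for Cenpf and 0.082 for Foxm1. Leaving out each library gave ranges of -0.23 to 0.11 for Mcm6, -0.2 to 0.15 for Cdc6, -0.062 to 0.17 for Cdc45, -0.077 to 0.21 for Ccnb2, -0.12 to 0.14 for Ccna2, -0.024 to 0.25 for Plk1, -0.014 to 0.15 for Tpx2, -0.19 to 0.047 for Cenpf, -0.44 to 0.067 for Ttk and -0.18 to 0.11 for Foxm1.

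Counts of calls moved as follows. As background, 2.82% of all genes passed as higher with DESeq2 size factors and 2.86% with upper quartile scaling. With no filter it was 3.14%, with the stricter filter 2.99%, with limma voom 2.99% and with length and GC offsets 2.59%. DESeq2 called 7.64% of genes given an adjusted p as higher and 5.08% as lower. With library size alone 5.57% of all genes passed as lower. Replication members higher numbered 1 with length and GC offsets and 0 to 1 when a library was left out. Mitosis members higher numbered 1 with DESeq2 and with length and GC offsets, and 0 to 1 when a control library was left out. Mitosis members lower numbered 1 (Cenpe) only without control replicate 3. Further replication genes higher numbered 1 (Tk1) with DESeq2 size factors, upper quartile scaling, no filter, the stricter filter and limma voom, 3 with DESeq2 and with length and GC offsets, and 0 to 3 when a library was left out. Further mitosis genes higher numbered 1 (Ube2s) with DESeq2 and with length and GC offsets, and 0 to 2 when a library was left out, with 0 to 1 lower. G1 genes higher numbered 1 (E2f1) with no filter and with DESeq2, and lower 2 with library size alone and 1 with DESeq2, with ranges of 0 to 1 and 0 to 4 when a library was left out. CDK inhibitors lower numbered 1 (Cdkn1b) with library size alone and with DESeq2, with ranges of 0 to 2 higher and 0 to 1 lower when a library was left out. Over all genes 1242 passed with library size alone (268 higher, 974 lower, against 474 and 183), 1036 with no filter, 1834 with DESeq2, 21 with length offsets alone and 0 to 3277 when a library was left out. In promoters with 250 bases before the start alone, CHR letters were in 47.1% of mitosis windows and 17.1% of all, CCAAT in 33.9% and E2F letters in 1.86% of all.

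Same-numbered libraries of both groups deviated together with r = 0.0341 and 0.103. With 2 KO libraries, the deviations of each mirror those of the other, so these values cannot decide whether the numbers pair the libraries. The main fit did not pair them. With the replicate number as a block, 2037 genes passed (1235 higher and 802 lower), no member did, and log2 fold changes were 0.0054 for Aurka, -0.0071 for Tpx2 and 0.11 for Foxm1. Control replicate 3 has no same-numbered KO library, so it did not enter the genotype difference in this fit. Further genes passing were 1 replication gene higher (Tk1), and 2 mitosis genes higher and 1 lower. Of the G1 genes 1 passed as higher and 2 as lower, and of the CDK inhibitors 2 as higher and 1 as lower. In this fit 7.07% of all genes passed as higher and 4.59% as lower. With 2 KO libraries the intervals limit what can be seen. In data simulated without trends on length or GC content, 42% of 1.5-fold changes were recovered.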
